A study of Mus musculus with 30 samples.

Results

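The adult globin genes Hba-a1, Hba-a2, Hbb-bs and Hbb-bt and the gene Alas2 were followed in the mouse ventral prostate (VP). Alas2 is the red cell form of the enzyme that starts heme synthesis. Its levels went with those of the globins after 32 weeks of diet and hardly after 12 weeks. Which cells of this tissue gave the Alas2 RNA was not tested. The 5 genes were chosen by name, and all 5 were found by symbol among the 39179 gene identifiers of the deposited count tables. Their measured levels in these mice entered that choice, so the levels are given as a description and no test of the 5 genes is used as support. The series holds the VP of 30 male C57BL/6 mice that ate normolipidic diets from weaning on, based on linseed oil (LO, rich in ω-3 fatty acids), soybean oil (SO, rich in ω-6) or lard (PF, rich in saturated fat). The 6 groups are LO, SO and PF after 12 weeks of treatment and LO, SO and PF after 32 weeks, with 5 mice each. The labels name no mutation, transgene or drug. By the paper's methods, mice were injected with glucose and with insulin for tolerance tests near the end of treatment. Blood was taken from a tail vein in these tests, and a cold exposure was also made. Mice were killed with excess anesthetics and bled. Which of the sequenced mice went through the tests is not given in the sources used here. Each library is the polyadenylated RNA of a whole VP from 1 mouse, so epithelium, stroma, vessels and the blood inside them were sequenced together. Whether the animals were perfused before dissection is not given in the sources used here. In such bulk tissue, fewer cells of a type and less RNA per cell cannot be told apart.

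Adult hemoglobin is a tetramer of alpha and beta globin chains, each holding a heme. Mice make the alpha chain from a pair of neighbouring genes, Hba-a1 and Hba-a2, and C57BL/6 mice, which carry the single haplotype of the beta locus, make the beta chain from Hbb-bs and Hbb-bt. Alas2 makes delta-aminolevulinate in red cell precursors, while its relative Alas1 serves the other tissues. Circulating red cells have no nucleus, but the youngest of them, the reticulocytes, still carry globin messenger RNA, so nearly any vascular tissue yields some of it.

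On GRCm38, Hba-a1 (ENSMUSG00000069919) lies at chr11:32283511-32284465 and Hba-a2 (ENSMUSG00000069917) at chr11:32296489-32297298, both on the plus strand. Hbb-bs (ENSMUSG00000052305) lies at chr7:103826534-103828096 and Hbb-bt (ENSMUSG00000073940) at chr7:103812524-103813996, both on the minus strand. Alas2 (ENSMUSG00000025270) lies at chrX:150547375-150570638 on the plus strand. These positions are those of the whole genes, introns included, and the counts are of read pairs on their exons.

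The coding sequences of each globin pair are nearly the same, which bears directly on how many pairs could be counted. Over 429 coding bases, Hba-a1 and Hba-a2 differ by the single substitution C381T, and over 444 coding bases Hbb-bs and Hbb-bt differ by C417T, with positions counted from 1 at the A of the start codon, the first-named gene's base first and the other gene's base last. The stretches of 60 coding bases around these positions are shown because they hold the only coding bases that tell the copies apart. The capital marks the differing base, and the letters come from the GENCODE M21 transcripts on GRCm38.
Hba-a1: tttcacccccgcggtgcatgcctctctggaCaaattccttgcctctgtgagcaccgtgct
Hba-a2: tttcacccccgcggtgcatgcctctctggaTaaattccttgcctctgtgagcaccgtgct
Hbb-bs: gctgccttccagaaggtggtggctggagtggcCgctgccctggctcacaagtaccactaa
Hbb-bt: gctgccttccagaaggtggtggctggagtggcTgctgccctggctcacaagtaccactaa

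The copies differ more outside the coding part. Of all 100-base windows along its main transcript, Hba-a1 shared 56.5% with Hba-a2, and Hba-a2 shared 74.5% with Hba-a1. Hbb-bs shared 62.6% with Hbb-bt and Hbb-bt shared 54.8% with Hbb-bs, while no window of Alas2 occurred in another gene. These shares compare transcripts only. A window that the other copy matches in the genome outside its transcript counts as not shared. The authors' counting left out any pair with more than a single alignment, so the 4 globin genes are undercounted and the split within each pair rests on the windows that differ. Pooled over the copies, alpha and beta totals depend less on that split than single genes do, but pooling does not bring back the read pairs left out. Lines for pairs that did not align to a single place made up 16.0 to 20.3% of all lines counted in the 30 libraries.

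The promoters of the 5 genes are shown because the globin genes moved together from mouse to mouse and Alas2 followed them only in part. Each run is the 120 bases before the RefSeq start on GRCm38.p6, and the capitals mark matches on either strand to 4 motifs. These were CACCC, the core of sites for Krüppel-like factors, CCAAT, the core of sites for NF-Y, GATAA, the core of sites for GATA factors, and ATATAA, a form of the TATA box. All 5 genes matched an entry of the RefSeq promoter table. The RefSeq starts lie inside the GENCODE gene spans given above. The windows of Hba-a1 and Hbb-bs therefore fall wholly inside those spans, and the other windows overlap them in part. The windows are chr11:32283552-32283671 (plus strand) for Hba-a1, chr11:32296372-32296491 (plus) for Hba-a2, chr7:103827929-103828048 (minus) for Hbb-bs, chr7:103813924-103814043 (minus) for Hbb-bt and chrX:150547297-150547416 (plus) for Alas2.
Hba-a1: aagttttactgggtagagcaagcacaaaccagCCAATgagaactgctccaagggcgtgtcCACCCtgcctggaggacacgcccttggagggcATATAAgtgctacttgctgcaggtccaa
Hba-a2: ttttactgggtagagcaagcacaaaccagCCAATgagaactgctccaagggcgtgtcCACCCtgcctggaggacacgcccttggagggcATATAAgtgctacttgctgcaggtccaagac
Hbb-bs: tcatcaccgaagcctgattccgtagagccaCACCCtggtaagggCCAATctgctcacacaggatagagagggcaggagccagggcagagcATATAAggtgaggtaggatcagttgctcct
Hbb-bt: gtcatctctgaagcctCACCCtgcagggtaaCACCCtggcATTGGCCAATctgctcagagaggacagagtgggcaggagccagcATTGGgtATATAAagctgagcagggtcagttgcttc
Alas2: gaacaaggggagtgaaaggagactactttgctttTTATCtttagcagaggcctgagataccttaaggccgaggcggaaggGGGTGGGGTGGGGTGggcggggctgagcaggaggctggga

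All 4 globin windows held the CACCC motif, the CCAAT motif and also ATATAA, and none held GATAA. The Alas2 window held the CACCC motif and also GATAA on its reverse strand, and neither of the others. Among 32851 promoters of the same length, 31.7% held CACCC, 21.3% CCAAT, 10.5% GATAA and 4.47% ATATAA. The ATATAA match began 28 to 31 bases before the start in the 4 globin genes. Of the CCAAT matches on the reverse strand of Hbb-bt, the one 80 bases before the start adjoins the match on the forward strand. The alpha promoters shared an unbroken run of 117 bases, and the longest run shared by the beta promoters was 14 bases. These matches describe the letters of the windows and nothing more.

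Each mouse gave from 27590631 to 41301707 counted pairs on genes. Levels below are CPM, counts scaled to a common library total, after TMM scaling of all 30 libraries, and an error given as ± is the SD over the 5 mice of a group. The 5 genes were well covered at this depth, with 54 to 10296 counts per gene and mouse, so differences between mice were mostly far larger than counting error. All 5 passed edgeR's filter on low counts in each of the 3 fits, that is at 12 weeks, at 32 weeks and over all mice. The tissue was prostate by its markers, with Sbp, a secreted protein of the VP, between 76850 and 269080 CPM. The 4 globin genes together took 0.0018 to 0.0431% of the counts on genes, a small share even in the mouse that held most.

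Per kilobase of exon, Hbb-bs was the most abundant of the 5 genes, with a median of 29.7 CPM per kilobase over the 30 mice. Hba-a2 followed with 8.72, Hba-a1 with 8.05, Hbb-bt with 7.41 and Alas2 with 3.98 CPM per kilobase. Given the shared windows, the order within each globin pair is uncertain.

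After 12 weeks the globin levels differed more between mice of the same diet than between diets. For Hbb-bs, the beta gene with more counts, mice 1 to 5 had 37.2, 56.2, 25.8, 20.9 and 16.1 CPM on LO. On SO the Hbb-bs levels were 35.7, 18.6, 24.7, 12.7 and 15.6 CPM, and on PF they were 19.3, 37.6, 21.5, 12.9 and 19.0 CPM. The 3 diets overlapped throughout, and within each diet the highest mouse had 2.81 to 3.49 times the level of the lowest.

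The other beta chain gene, Hbb-bt, repeated this picture after 12 weeks at a lower level. Its levels were 6.65, 11.1, 4.96, 4.22 and 3.19 CPM on LO. They were 6.30, 3.32, 5.56, 3.15 and 3.37 CPM on SO and 3.81, 8.37, 5.49, 2.68 and 3.61 CPM on PF. LO mouse 2 and PF mouse 2 were highest in their groups for both beta genes.

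Among the alpha chain genes after 12 weeks, Hba-a1 had 16.4, 11.8, 6.44, 6.17 and 3.46 CPM on LO. It had 16.2, 4.68, 6.68, 3.19 and 5.21 CPM on SO and 7.85, 9.91, 6.64, 3.81 and 4.86 CPM on PF. Mouse 1 of LO and mouse 1 of SO stood highest for this gene. Hba-a2 had 10.5, 11.1, 6.15, 4.56 and 3.59 CPM on LO, 11.6, 4.15, 5.66, 3.03 and 3.72 CPM on SO and 6.73, 9.60, 6.15, 2.95 and 4.88 CPM on PF. For neither gene did the groups separate.

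Alas2 was far steadier after 12 weeks than the globins. It had 8.57, 11.5, 8.85, 9.58 and 7.90 CPM on LO, 8.68, 6.34, 8.46, 10.97 and 10.6 CPM on SO and 7.43, 8.34, 8.29, 9.52 and 9.31 CPM on PF. Over all 15 mice its highest level was 1.81 times its lowest, against 4.41 times for Hbb-bs, and the mouse with most Hbb-bs after 12 weeks, LO mouse 2, was also the one with most Alas2.

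After 32 weeks 4 of the 5 PF mice carried more globin RNA than any SO mouse. For Hbb-bs, PF mice 1 to 5 had 70.1, 70.5, 123, 293 and 19.6 CPM. SO mice had 35.5, 11.4, 14.9, 13.4 and 15.6 CPM and LO mice 70.7, 23.9, 28.2, 21.6 and 40.2 CPM. PF mouse 5 lay within the SO range and below all 5 LO mice, and PF mouse 4 stood far above the next mouse, PF mouse 3.

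Hbb-bt had 11.7, 15.9, 28.0, 57.7 and 3.81 CPM in PF, 5.45, 1.61, 3.78, 3.36 and 2.56 CPM in SO and 12.9, 5.55, 5.45, 4.76 and 9.38 CPM in LO mice after 32 weeks. Here too PF mice 1 to 4 exceeded all SO mice, and PF mice 2 to 4 exceeded all LO mice. PF mouse 5 lay within the range of the SO mice.

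Hba-a1 had 28.4, 16.4, 25.9, 60.1 and 4.93 CPM in PF, 15.4, 2.26, 4.57, 4.05 and 3.27 CPM in SO and 28.0, 5.68, 7.66, 5.83 and 7.33 CPM in LO mice after 32 weeks. Hba-a2 had 21.1, 14.5, 21.5, 56.6 and 4.34 CPM in PF, 9.96, 1.70, 3.59, 3.03 and 3.18 CPM in SO and 20.1, 5.96, 5.54, 5.13 and 6.86 CPM in LO mice. For both alpha genes mouse 1 stood well above the other mice in LO and in SO, and PF mice 1 to 4 exceeded all SO mice. In LO the alpha levels of mouse 1 lay close to those of PF mice 1 and 3.

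Alas2 after 32 weeks stood apart in fewer mice. It had 8.84, 11.9, 17.8, 32.7 and 9.68 CPM in PF, 12.4, 9.996, 6.92, 7.79 and 9.56 CPM in SO and 11.7, 9.85, 10.2, 11.8 and 10.7 CPM in LO mice. PF mice 3 and 4 stood above all other mice of the series, PF mouse 2 lay just above the LO mice and within the SO range, and PF mice 1 and 5 lay within the SO range too. PF mouse 1, which had the second highest Hba-a1 level after 32 weeks, had less Alas2 than any LO mouse of that age.

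**Figure D1:**
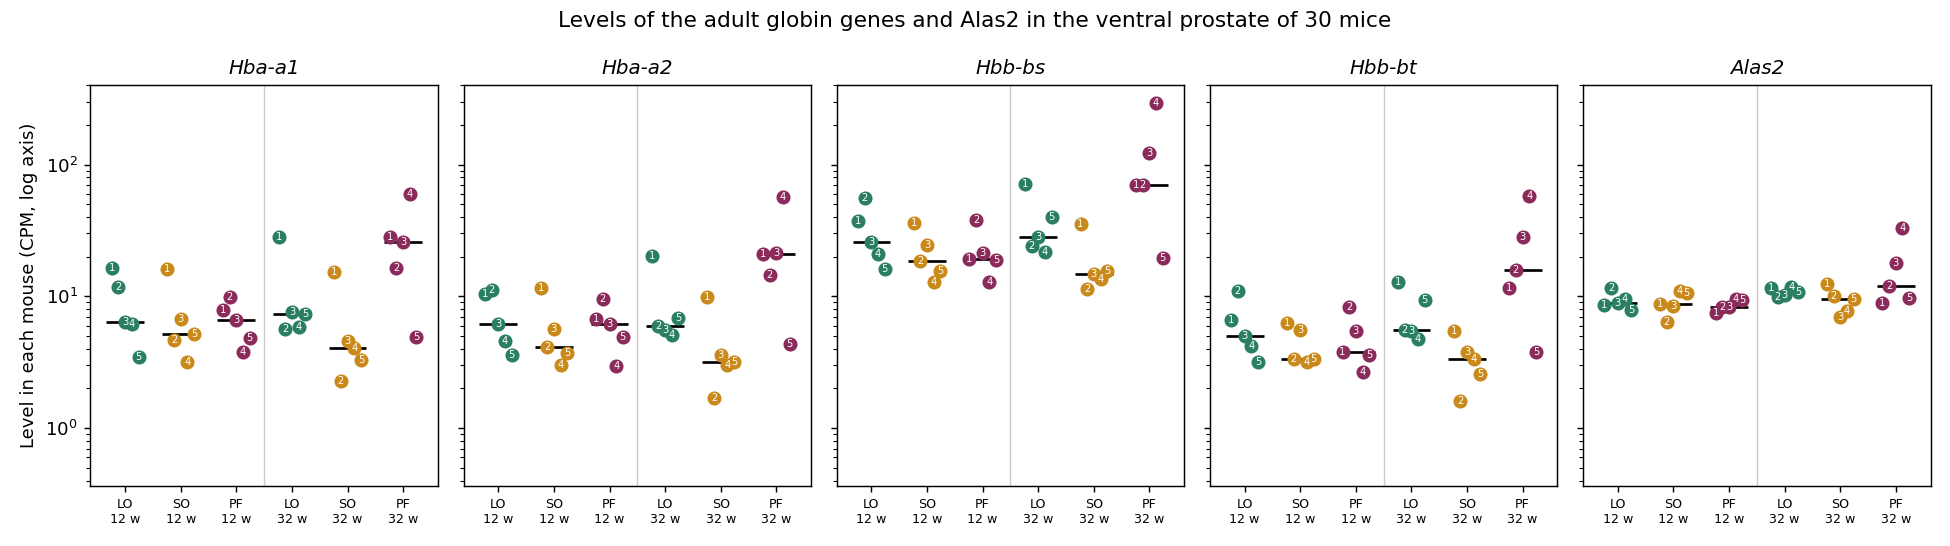
Level of each gene in every mouse, in CPM on a log axis, by diet and weeks of treatment. Each point is 1 mouse with its replicate number, the bar is the group median, and PF mouse 4 after 32 weeks stands highest for all 5 genes, at 293 CPM for Hbb-bs and 32.7 CPM for Alas2.

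By group means, PF after 32 weeks ranked first for all 5 genes and LO after 32 weeks second. Hbb-bs averaged 115 ± 106 CPM (n = 5) in PF, 36.9 ± 20.2 CPM (n = 5) in LO and 18.1 ± 9.82 CPM (n = 5) in SO mice after 32 weeks. After 12 weeks it averaged 31.2 ± 16.0 CPM (n = 5) in LO, 22.1 ± 9.27 CPM (n = 5) in PF and 21.5 ± 9.14 CPM (n = 5) in SO mice. SO after 32 weeks was the lowest group for each of the 4 globin genes, whereas for Alas2 the lowest mean was that of PF after 12 weeks, 8.58 ± 0.849 CPM (n = 5). In none of these orders did neighbouring groups differ by more than the larger of their SDs, the first step from PF to LO included, since the PF mice themselves spread 14.9 times from lowest to highest for Hbb-bs.

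Each diet was compared with the others at each time point by edgeR's quasi-likelihood test over all genes, and the results for the 5 genes are given as fold changes. After 32 weeks, PF exceeded SO by 2.68 on the log2 scale for Hbb-bs (SE 0.592), 2.82 for Hbb-bt (SE 0.582), 2.48 for Hba-a2 (SE 0.638), 2.22 for Hba-a1 (SE 0.682) and 0.81 for Alas2 (SE 0.295). As folds these are 6.41 for Hbb-bs, 7.05 for Hbb-bt, 5.56 for Hba-a2, 4.65 for Hba-a1 and 1.75 for Alas2. The globin changes ranked between 20 (Hbb-bt) and 36 (Hba-a1) by size among 16218 genes tested, and the median over the 5 genes was 2.48 beside −0.0031 over all genes. None of the 5 was called at an adjusted p under 0.05, as was true of all 16218 genes (0% called). At an unadjusted p under 0.05 all 5 were reached, beside 1748 genes or 10.8% of those tested. The Wald test of DESeq2 called 3 of the 5, Hba-a2, Hbb-bs and Hbb-bt, beside 109 genes or 0.726% of those it tested. Without PF mouse 4 the log2 changes were smaller, 1.98 for Hbb-bs, 2.16 for Hbb-bt, 1.86 for Hba-a2, 1.70 for Hba-a1 and 0.38 for Alas2. Without SO mouse 1 they were larger for Hba-a1, at 2.97, and for Hbb-bs, at 3.08. With only mice 1 to 4 of each diet, which leaves out the PF mouse with low globin, the change was 2.90 for Hbb-bs, 2.33 for Hba-a1 and 0.96 for Alas2.

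Against LO the PF mice stood less far apart after 32 weeks. The log2 changes were 1.64 for Hbb-bs (SE 0.568), 1.62 for Hbb-bt (SE 0.553), 1.43 for Hba-a2 (SE 0.612), 1.31 for Hba-a1 (SE 0.660) and 0.58 for Alas2 (SE 0.294). No gene of the 5 and none of 16218 was called by edgeR (0%), 3 of the 5 had an unadjusted p under 0.05 beside 8.6% of all genes, and DESeq2 called none of the 5 beside 85 genes (0.585%). The size of these differences turned on single mice of both groups. Without PF mouse 4 the change of Hbb-bs was 0.94 and that of Hba-a1 0.80, and without LO mouse 1 they were 2.03 and 2.06. With both of these mice left out, a choice made after seeing the data, the changes were 1.34 for Hbb-bs and 1.54 for Hba-a1.

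LO exceeded SO after 32 weeks by 1.04 for Hbb-bs (SE 0.566), 1.19 for Hbb-bt (SE 0.559), 1.04 for Hba-a2 (SE 0.618), 0.90 for Hba-a1 (SE 0.664) and 0.22 for Alas2 (SE 0.294) on the log2 scale. None of the 5 and none of 16218 genes was called by edgeR (0%), 1 of the 5 had an unadjusted p under 0.05 beside 3.48% of all genes, and DESeq2 called none of the 5 beside 6 genes (0.0234%). Without LO mouse 1 the change was 0.16 for Hba-a1, 0.45 for Hba-a2, 0.65 for Hbb-bs and 0.90 for Hbb-bt, and without SO mouse 1 it was 1.65 for Hba-a1, 1.63 for Hba-a2, 1.44 for Hbb-bs and 1.44 for Hbb-bt.

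After 12 weeks the 5 genes lay close together in the 3 diets. Between PF and SO their log2 changes ran from −0.11 (Hba-a1) to 0.15 (Hbb-bt), between PF and LO from −0.49 (Hbb-bs) to −0.11 (Alas2), and between LO and SO from 0.05 (Alas2) to 0.55 (Hbb-bs). No SE of a globin gene in these comparisons was under 0.354. The direction between PF and SO turned for each of the 5 genes without some single mouse, as for Hba-a1, which ran from −0.30 without PF mouse 2 to 0.42 without SO mouse 1. edgeR called none of the 5 and none of 15873 genes (0%) in each of the 3 comparisons, and none of the 5 had an unadjusted p under 0.05 beside 7.99%, 9.24% and 4.28% of all genes. DESeq2 called none of the 5, beside 1.31% of genes for PF against SO, 0.522% for PF against LO and 0% for LO against SO.

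**Figure D2:**
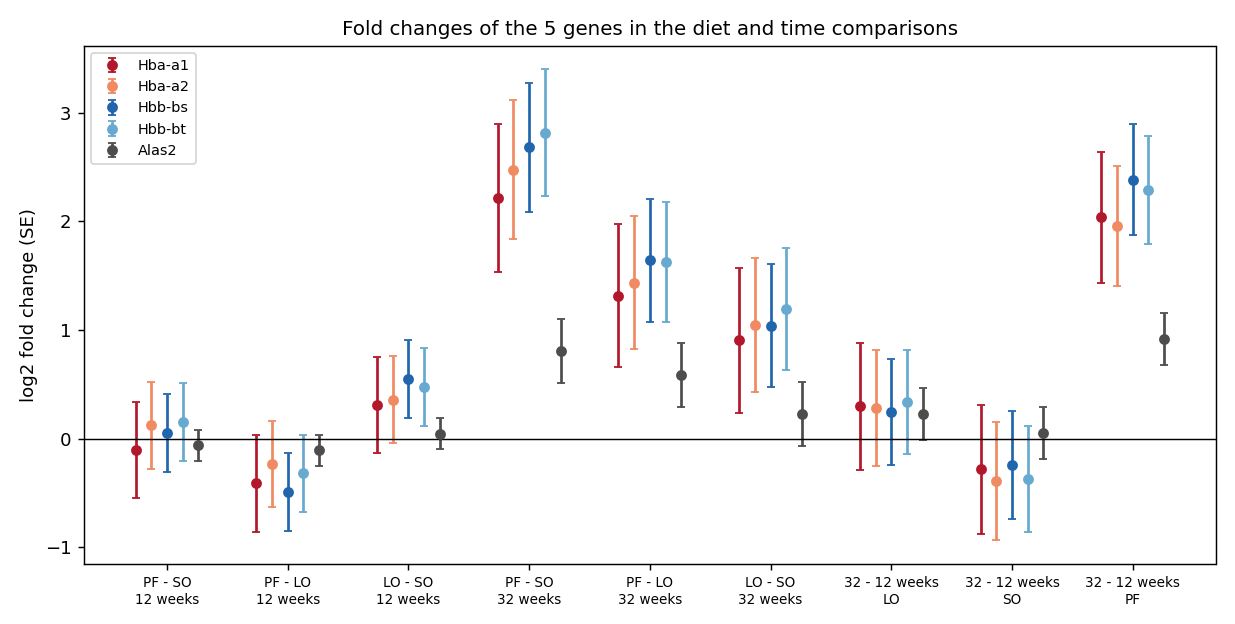
Fold changes on the log2 scale with their SE for each gene in the diet comparisons of each time point and in the time comparisons of each diet. The 4 globin genes lie between 2.22 and 2.82 for PF against SO after 32 weeks, and within 0.55 of 0 in all diet comparisons after 12 weeks.

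Between the time points, globin RNA was higher after 32 than after 12 weeks in PF mice, while in LO and SO the direction turned for some of the 5 genes without a single mouse. Age, length of treatment and any difference in when the samples were collected cannot be told apart in this comparison. In PF the log2 changes were 2.38 for Hbb-bs (SE 0.511), 2.29 for Hbb-bt (SE 0.498), 2.04 for Hba-a1 (SE 0.603), 1.96 for Hba-a2 (SE 0.550) and 0.91 for Alas2 (SE 0.242). In LO they lay between 0.23 for Alas2 and 0.34 for Hbb-bt, and in SO between −0.39 for Hba-a2 and 0.05 for Alas2. Without LO mouse 1 of 32 weeks the changes in LO were −0.40 for Hba-a1, −0.27 for Hba-a2 and −0.11 for Hbb-bs. In SO the change of Hba-a1 was −1.01 without mouse 1 of 32 weeks and 0.24 without mouse 1 of 12 weeks, and that of Hba-a2 was −0.96 and 0.037. edgeR called none of the 5 in any diet, beside 5 of 16605 genes (0.0301%) in PF, 448 (2.7%) in LO and 1073 (6.46%) in SO. The shares called higher and lower were 0.0181% and 0.012% in PF, 1.74% and 0.958% in LO and 5.25% and 1.22% in SO. At an unadjusted p under 0.05 were all 5 in PF and none in LO or SO, beside 10.2%, 20.5% and 19.7% of all genes. DESeq2 called 3 of the 5 in PF, Hbb-bs, Hbb-bt and Alas2, beside 52 genes (0.295%), and none in LO (6.56% of genes called) or SO (8.03%). Without PF mouse 5 after 32 weeks edgeR called 2 of the 5, Hbb-bs and Hbb-bt, and without PF mouse 4 the change of Hbb-bs was 1.69 and that of Alas2 0.50.

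The difference between PF and SO itself was larger after 32 than after 12 weeks by 2.63 for Hbb-bs (SE 0.704), 2.66 for Hbb-bt (SE 0.693), 2.35 for Hba-a2 (SE 0.770), 2.32 for Hba-a1 (SE 0.840) and 0.86 for Alas2 (SE 0.341). For PF against LO this change was 2.14 for Hbb-bs (SE 0.697) and 0.69 for Alas2 (SE 0.340), and for LO against SO it was 0.49 for Hbb-bs (SE 0.695) and 0.17 for Alas2 (SE 0.340). Without PF mouse 4 of 32 weeks the change of Hbb-bs was 1.95 for PF against SO and 1.44 for PF against LO. For LO against SO it was 0.12 without LO mouse 1 of 32 weeks, and that of Hba-a1 was −0.12. These comparisons share their samples with those above and with each other. edgeR called none of the 5 and none of 16605 genes (0%) in any of the 3. Unadjusted p under 0.05 were found for all 5 in the first (9.49% of genes), 4 in the second (7.79%) and none in the last (3.33%). DESeq2 called only Hbb-bt of the 5 in the first (44 genes, 0.224%), and none in the second (0.0702%) or the last (0%).

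Within each pair the copies kept similar proportions while the summed globin CPM varied 27.6 times between mice. Hbb-bt made up 12.4 to 20.4% of the beta counts and Hba-a2 39.0 to 51.2% of the alpha counts. PF mouse 4 after 32 weeks, with the highest globin total, had 16.5% Hbb-bt and 48.5% Hba-a2, inside those ranges. Since the copies were split on the windows that differ, these shares describe counted pairs and not the RNA of each gene.

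The proportion of alpha to beta globin, per base of exon, separated mice by their number in the labels. In mice numbered 1 it was 0.621 in LO, 0.673 in SO and 0.647 in PF after 12 weeks, and 0.586 in LO, 0.629 in SO and 0.617 in PF after 32 weeks. In the other 24 mice it lay between 0.294 and 0.487. The mouse numbered 1 was the highest of its group in 6 of 6 groups and the 6 did not overlap the other 24, with means of 0.629 ± 0.0293 (n = 6) and 0.401 ± 0.0503 (n = 24). These sets were compared after seeing the values and no test was made. By diet and time the ratio had group means from 0.410 in PF after 32 weeks to 0.491 in PF after 12 weeks, a range smaller than the SD of any group. Hba-a2 made up 41.7 ± 2.62% (n = 6) of alpha counts in mice numbered 1 and 46.7 ± 2.92% (n = 24) in the others, and Hbb-bt 14.9 ± 1.07% (n = 6) and 17.4 ± 1.96% (n = 24) of beta counts. These ratios and shares are of counted read pairs, without those that aligned to more than a single place. Whether that loss differed between mice was not tested for the globins. The labels do not say what a shared number means.

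Alas2 relative to globin, a ratio with the globin counts below the line, was low in the mice with most globin. Alas2 counts per 1000 globin counts were 67.4, 101, 89.5, 70.1 and 296 in PF mice 1 to 5 after 32 weeks. They ranged from 88.5 to 316 in LO and from 186 to 591 in SO mice of that age. After 12 weeks they ranged from 121 to 300.2 in LO, 124 to 496 in SO and 127 to 426 in PF mice. PF mice 1 to 4 after 32 weeks and LO mouse 1 after 32 weeks, at 88.5, had the 5 lowest ratios of the 30 mice.

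**Figure D3:**
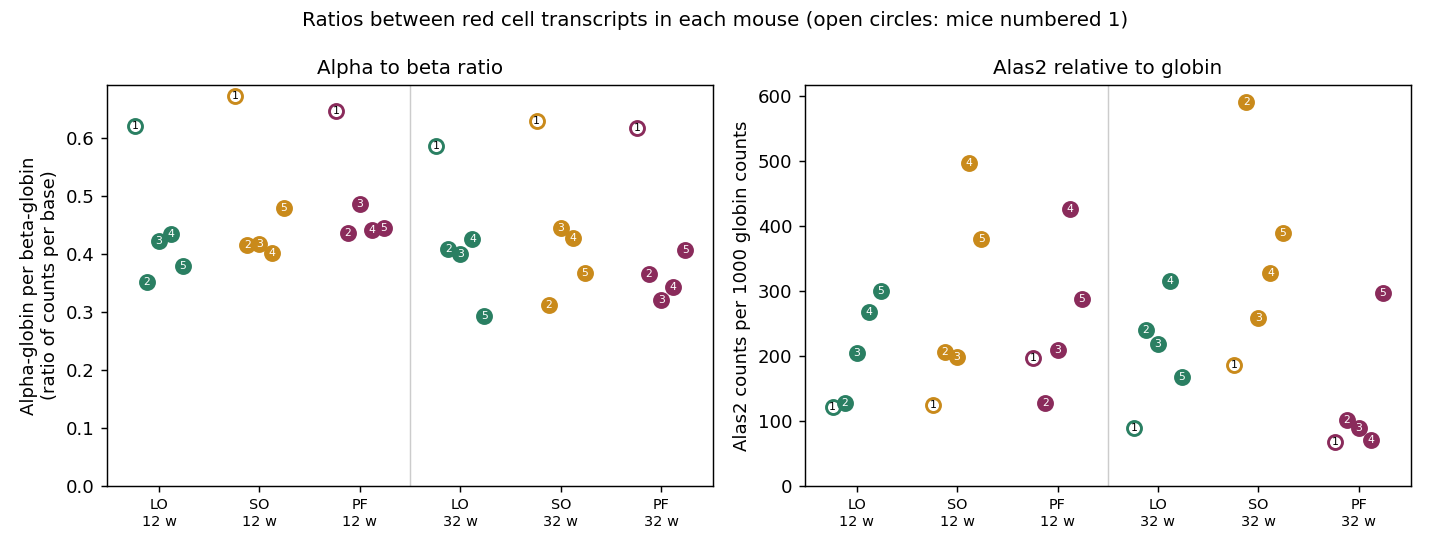
Ratios between globin and Alas2 transcripts in each mouse. The ratio of alpha to beta globin counts per base of exon is at left, and Alas2 counts per 1000 globin counts are at right. The 6 mice numbered 1 (open circles) lie between 0.586 and 0.673 at left, above the other 24 mice, and at right 4 PF mice after 32 weeks lie between 67.4 and 101.

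Likeness to the globins was measured as Pearson's r between a gene's log2 CPM and the mean log2 CPM of the 4 globin genes over the 30 mice, among 16605 genes, and is a description with no test. The points share depth, diet and time point. The 4 globin genes had r from 0.975 (Hbb-bt) to 0.992 (Hba-a2), partly because each is part of the mean. Alas2 ranked 6 of 16605 with r = 0.684, but r was 0.0395 over the 15 mice after 12 weeks and 0.776 over the 15 after 32 weeks. Without PF mouse 4 after 32 weeks it was 0.480.

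Bpgm, the red cell enzyme that makes 2,3-bisphosphoglycerate and so sets how tightly hemoglobin holds oxygen, had r = 0.559 (0.210 after 12 and 0.768 after 32 weeks). Its levels spanned only 20.8 to 32.8 CPM, with 27.1, 22.5, 28.7, 32.8 and 26.0 CPM in PF mice after 32 weeks. Bpgm was 0.35 higher on the log2 scale in PF than in SO mice of that age (SE 0.0889, adjusted p = 0.278 by edgeR), short of the threshold. PF mouse 4 had the highest level of Bpgm in the series.

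Itga2b, the integrin alpha chain of platelets, was also among the 10 genes most like the globins, with r = 0.511. Its levels lay between 1.498 and 3.25 CPM. Further genes among the 10 were Arhgdig (r = 0.633), ENSMUSG00000060214, which had no symbol (0.548), Plpp7 (0.542), the pseudogenes Gm10073 (0.537), Rpl19-ps11 (0.527) and Rps13-ps4 (0.5004), and Nol3, an inhibitor of cell death (0.4998).

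**Figure D4:**
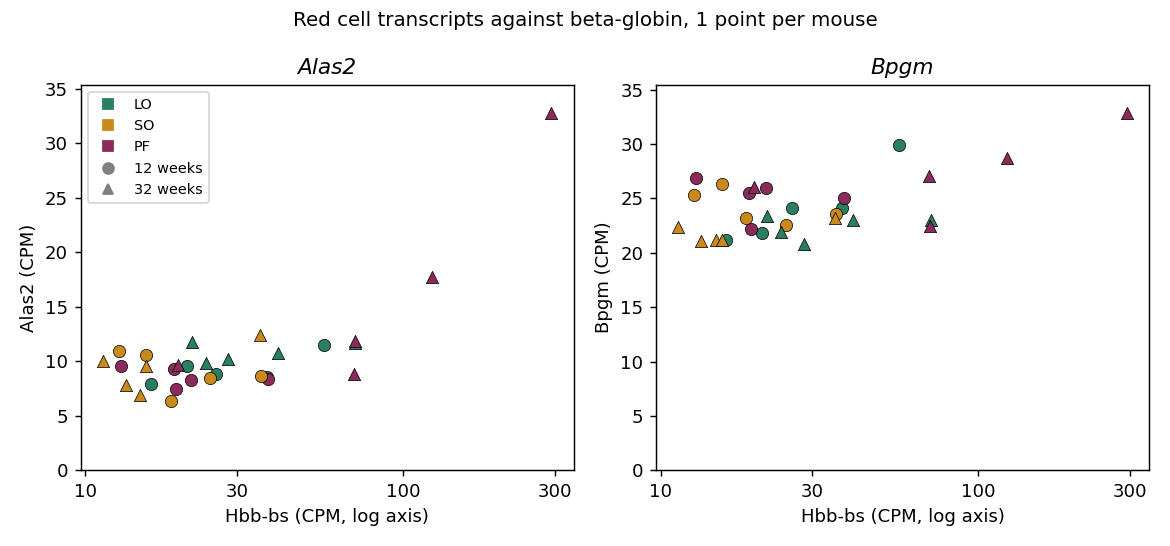
Alas2 and Bpgm against Hbb-bs in each of 30 mice, in CPM, with Hbb-bs on a log axis. Colours mark diets and shapes mark weeks of treatment, and PF mouse 4 after 32 weeks (293 CPM Hbb-bs) is highest in both panels, at 32.7 CPM of Alas2 and 32.8 CPM of Bpgm.

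The other chains of the globin clusters were at most barely detected at this depth. Of 9 such genes, the embryonic and theta chains among them, 7 were found and none had more than 1 count in a mouse. Hbb-y, Hbb-bh0 and Hbb-bh2 had no count in any of 30 mice, Hba-x and Hbb-bh1 had none in 29 mice, Hbq1a in 26 and Hbq1b in 27. Hbb-b1 and Hbb-b2, the adult beta genes of the other haplotype, were not found by symbol. The globins of other cells were present, with Cygb (cytoglobin) between 9.97 and 26.6 CPM and Mb (myoglobin of muscle) between 0.654 and 50.8 CPM. Neither Cygb nor Mb passed the threshold in any comparison of diets or time points. Of all genes 0% passed in each comparison of diets, and 0.0301% in PF, 2.7% in LO and 6.46% in SO between time points.

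Other genes of red cells and their precursors were mostly near 0, against globins in every mouse. Of the 20 found of a list of 21, 12 did not pass the filter over 30 mice. Slc4a1, the anion exchanger of the red cell membrane, had no count in 10 mice and at most 1.13 CPM, in LO mouse 3 after 32 weeks, a mouse with 46.8 CPM of summed globin, and PF mice 3 and 4 of that age had 0.263 and 0.426 CPM. The precursor factors Klf1 and Gata1 reached at most 0.384 and 0.352 CPM, in LO mouse 1 after 12 weeks and PF mouse 5 after 32 weeks. Their part in the globin levels was not tested. These 3 genes were picked after their values were seen, as defining markers. The summed level of the list was 20.1 to 26.7 CPM in PF, 12.6 to 22.5 in SO and 15.2 to 18.5 in LO mice after 32 weeks. Most of it was Kel, the Kell blood group protein, at 6.31 to 40.5 CPM.

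The level of Kel moved mainly with time. In PF against SO after 32 weeks its log2 change was 0.75 (SE 0.232, adjusted p = 0.349), and none of the 7 genes of the list that were tested there was called, beside 0% of all genes. Of these 7, 6 were above 0 with a median of 0.45, and 3 had an unadjusted p under 0.05, beside 10.8% of all genes. Between the time points, 1 of 8 tested genes was called in LO and in SO, which was Kel in both, beside 2.7% and 6.46% of all genes. Kel fell by 1.09 in LO (SE 0.231, adjusted p = 0.0148) and by 1.47 in SO (SE 0.233, adjusted p = 0.00261), and in PF it differed by −0.71 (SE 0.228, adjusted p = 0.312). The call in LO was lost without LO mouse 2 or 3 of 12 weeks (−0.98 and −1.01) or LO mouse 3 of 32 weeks (−0.95), while that in SO held with any single mouse left out. The differences between diets in this fall were not called for any of the 8 genes, beside 0% of all genes.

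The steps of heme synthesis shared by all cells showed little of the globin pattern. In PF against SO after 32 weeks none of 11 genes was called, beside 0% of all genes. Their median was 0.09 on the log2 scale, and 1 had an unadjusted p under 0.05 by edgeR, beside 10.8% of all genes. Alas1, the enzyme form of other tissues, differed by 0.0086 (SE 0.124, adjusted p = 0.987 by edgeR). The most abundant members, the mitochondrial iron importer Slc25a37 and the ferrochelatase gene Fech, differed by −0.12 (SE 0.118) and 0.0025 (SE 0.0657) there. Between the time points Cpox, an enzyme late in the pathway, fell in LO by 0.43 (SE 0.0920, adjusted p = 0.0153) and in SO by 0.33 (SE 0.0920, adjusted p = 0.0317), and Uros, an enzyme in its middle, fell in SO by 0.25 (SE 0.0761, adjusted p = 0.0427). These calls were fragile. That of Uros was lost without any of 9 of the 10 SO mice and with no filter (−0.26), Cpox in SO without mouse 4 or 5 of 12 weeks or mouse 2, 3, 4 or 5 of 32 weeks (−0.36 to −0.28), and Cpox in LO without mouse 2 or 3 of 12 weeks or mouse 3 of 32 weeks (−0.40 to −0.35).

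Of 14 genes that reticulocytes share with other cells, such as Bpgm, none was called in PF against SO after 32 weeks, beside 0% of all genes. The median was 0.03 on the log2 scale, and 3 of the 14 had an unadjusted p under 0.05 by edgeR, beside 10.8% of all genes. Between the time points in LO, Car2, a carbonic anhydrase, rose by 1.23 (SE 0.321, adjusted p = 0.0365) and Epb41, protein 4.1 of the membrane skeleton, fell by 0.42 (SE 0.0973, adjusted p = 0.0206), the 2 genes called of 14 beside 2.7% of all genes. Leaving out LO mice singly gave 1.10 to 1.39 for Car2, with the call lost for 8 of 10 mice (all but mouse 4 of each time point), and −0.45 to −0.36 for Epb41, with the call lost without mouse 2 or 3 of 12 weeks or mouse 1, 3 or 5 of 32 weeks.

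Genes that take up hemoglobin, heme and iron were not called between diets, beside 0% of all genes in each comparison of diets. Of 13, all were tested, and in PF against SO after 32 weeks Cd163, the macrophage receptor for hemoglobin bound to haptoglobin, differed by 0.85 (SE 0.491, adjusted p = 0.542), Hp (haptoglobin) by 0.98 (SE 0.784, adjusted p = 0.675) and Hmox1 (heme oxygenase) by 0.46 (SE 0.378, adjusted p = 0.680). These 3 were picked after their values were seen. Hp was 2.55 and 8.86 CPM in PF mice 3 and 4 after 32 weeks and 42.4 to 47.3 CPM in the other PF mice of that age. Hmox1 was 4.86 CPM in PF mouse 4 after 32 weeks, the lowest of its group, and 16.9 CPM in PF mouse 2. Slc40a1, the iron exporter ferroportin, rose between the time points by 0.91 in LO (SE 0.219, adjusted p = 0.0235) and by 0.84 in SO (SE 0.219, adjusted p = 0.0211). The call in LO was lost without mouse 2 or 3 of 12 weeks or mouse 2, 3 or 5 of 32 weeks, and that in SO without mouse 1, 4 or 5 of 12 weeks or mouse 2 or 4 of 32 weeks, with values of 0.73 to 1.19 over both. The most abundant members were the ferritin chains, Fth1 at 413 to 878 CPM and Ftl1 at 172 to 465 CPM.

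Blood carries platelets and leukocytes besides red cells, so their markers were read beside the globins. Of 13 platelet genes 4 passed the filter over 30 mice, and their summed level was 9.35 to 15.7 CPM in PF, 8.45 to 11.4 in SO and 8.26 to 16.2 in LO mice after 32 weeks. Ppbp (pro-platelet basic protein), which did not pass and was picked after its values were seen, had 0.714 and 1.16 CPM in PF mice 3 and 4 after 32 weeks, from 19 and 41 counts, and at most 0.288 CPM in any other mouse. Pf4, another chemokine of platelets, was not highest in these mice, at 1.99 and 2.27 CPM. Their part in the globin levels was not tested.

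Of 15 neutrophil genes 6 passed, with the list between 19.6 and 201 CPM in PF and 38.3 and 201 CPM in SO mice after 32 weeks, mostly from Lcn2 and Ltf, which epithelium also makes. Ly6g, Ngp and Camp had at most 3 counts in a mouse. Retnlg, a secreted protein of neutrophils, reached 216 counts or 6.33 CPM in PF mouse 5 after 32 weeks, the PF mouse of that age with least globin, and lay between 0.341 and 0.938 CPM in the other 4. S100a9, a calcium-binding protein of neutrophils, reached 1.98 CPM in LO mouse 5 after 32 weeks. These 5 genes were picked after their values were seen. Of 12 tissue leukocyte genes none was called between diets, beside 0% of all genes in each of these comparisons. In PF against SO after 12 weeks their median was 1.02 on the log2 scale and all 12 were above 0. At an unadjusted p under 0.05 by edgeR were 11 of the 12, beside 7.99% of all genes. In PF against SO after 32 weeks the median was −0.47 and 0 of 12 were above 0, opposite in sign to the globins. A single SO mouse stood out there. Ptprc was 64.9 CPM in SO mouse 4, against 14.4 to 28.7 CPM in the other SO mice and 14.1 to 36.7 CPM in PF mice of that age. In SO all 12 leukocyte genes were above 0 between the time points, and 10 of them were called higher, beside 5.25% of all genes. Among the 10 were Ptprc, Cd3e, Cd3g, Cd79a, Ms4a1, Cd68, Adgre1, Lyz2 and Nkg7. The called changes ran from 1.22 (Cd68) to 3.80 (Ms4a1), while none of the globin genes was called in SO. With the replicate number as a block Cd79a was not called (adjusted p = 0.0790). The neutrophil receptor Csf3r rose in SO as well, by 1.22 (SE 0.319, adjusted p = 0.0212). Ptprc, Cd3g and Nkg7 kept their call with any single SO mouse left out. The other 7 lost it without SO mouse 4 of 32 weeks, where Ms4a1 changed by 2.70 and Cd3e by 1.19, and without 1 to 7 other mice as well. Csf3r lost it without mouse 1 or 5 of 12 weeks or mouse 3 or 4 of 32 weeks (1.01 to 1.22).

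Vessels were read through 13 endothelial genes, which summed to 92.2 to 160 CPM in PF, 91.0 to 131 in SO and 95.4 to 162 in LO mice after 32 weeks, overlapping throughout. PF mouse 4 had 16.5 CPM of Pecam1, an adhesion protein of endothelium, below 3 of the other 4 PF mice of that age. In PF against SO after 12 weeks all 13 genes were above 0, with a median of 0.37 on the log2 scale. At an unadjusted p under 0.05 by edgeR were 7 of them, beside 7.99% of all genes. Of the 13 genes Emcn alone was called in any comparison. It rose in SO between the time points by 0.84 (SE 0.196, adjusted p = 0.0114 by edgeR), a call lost without SO mouse 4 of 32 weeks (0.74). Among 10 epithelial genes Sbp fell in LO by 0.81 (SE 0.218, adjusted p = 0.0410) and in SO by 0.96 (SE 0.219, adjusted p = 0.0100), and no other was called. The call in LO was lost with no filter (−0.80) and without mouse 2 or 3 of 12 weeks or mouse 1, 2, 3 or 5 of 32 weeks (−0.83 to −0.66).

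The relation of Hbb-bs to these lists was measured across the 30 mice as the correlation of its log2 CPM with the mean log2 CPM of the tested genes of each of 6 lists. These values are a description with no test, since the level of Hbb-bs entered its choice. For red cell genes other than the 5, Pearson's r was 0.243 and Spearman's rho 0.240, and r was 0.0993 without the 2 mice farthest from the median, −0.336 over the 15 mice of 12 weeks and 0.413 over the 15 of 32 weeks. For platelets r was 0.187 and rho 0.201, for neutrophils 0.120 and 0.0563, for endothelium 0.101 and 0.107, for tissue leukocytes 0.0454 and 0.1003 and for epithelium 0.0402 and 0.0256. With values centred on the 6 group means, r lay between −0.193 and −0.0576 for the 6 lists.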

How the data were processed

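RNA of the VP of 30 mice was sequenced with a stranded polyadenylated RNA kit on an Illumina HiSeq. The authors aligned the reads to GRCm38.p6 with TopHat2 and counted pairs per gene with HTSeq, as the methods and the submitters' processing notes give it, and the deposited files hold raw counts for each mouse. Lines that name no gene (pairs not aligned to a single place 16.0 to 20.3%, on no feature 6.67 to 12.2%, ambiguous 0.831 to 1.18%) stayed out of library sizes and tests. Of 39179 identifiers 37607 matched a GENCODE M21 symbol. Groups came from the labels, and each mouse is 1 replicate.

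Counts were scaled by TMM, filtered by filterByExpr and tested by the quasi-likelihood test of edgeR 4.0.16 (R 4.3.3), with Benjamini-Hochberg adjustment over all genes and a threshold of 0.05. Diets were compared within a time point (15 mice, 1 fit), and time points and their diet differences in a fit of 30 mice. Ratios and correlations used Python 3.11.15 with numpy 2.4.6 and scipy 1.17.1. The steps were tested on simulated data. Permutation p-values planned for the correlations of Hbb-bs are not given, since its level entered its choice. Lengths are unions of GENCODE M21 exons. No 2 libraries of a group agreed within sampling noise (lowest chi-square per degree of freedom 24.5 over 60 pairs).

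The 5 genes and the gene lists were chosen with earlier results of these data known. Named genes are the 5 in every mouse, from each list every gene past the threshold or else the 2 most abundant, and the 10 genes most like the globins. Other genes were named after their values were seen, and some genes of the lists and of the 10 are not reported here. Alternatives were the Wald test of DESeq2 1.42.0, other size factors, no filter, other sample sets, a replicate block and each mouse left out.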

Additional observations from a re-analysis of the deposited data

Results flagged for a closer look

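In each group of 5 mice the highest and the lowest value were set against Dixon's critical value of 0.71 for the gap to the nearest mouse over the range. Of 54 sets of values looked at, 10 had such a mouse. The sets share mice and genes and are built from the levels that entered the choice. The count is therefore a description, and no rate by chance is set beside it. No explanation was tested for any of them.

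Mouse 1 stood apart in 9 of the 10. In SO after 12 weeks it had 16.2 CPM of Hba-a1, with the next mouse at 6.68, and an alpha to beta ratio of 0.673, with the next at 0.479. In PF after 12 weeks its alpha to beta ratio was 0.647, with the next at 0.487. In LO after 32 weeks it had 28.0 CPM of Hba-a1 (next 7.66) and 20.1 CPM of Hba-a2 (next 6.86). In SO after 32 weeks it had 15.4 CPM of Hba-a1 (next 4.57), 9.96 CPM of Hba-a2 (next 3.59) and 35.5 CPM of Hbb-bs (next 15.6). In PF after 32 weeks its alpha to beta ratio was 0.617, with the next at 0.406. The last was PF mouse 5 after 32 weeks, with 296 Alas2 counts per 1000 globin counts and the next at 101.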

How the results depend on the processing

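No called value changed sign under any alternative, and of the values for single genes 1384 kept their side of the threshold, 92 lost it and 9 gained it. Of 1485 fold changes under alternatives 23 had the opposite sign, all of them uncalled and of the 5 genes followed here, 22 of them with a mouse left out. The 5 genes entered these counts in every comparison, and other list genes only where the main fit called them. Uncalled turns, and the 9 values that gained the threshold, could therefore come only from the 5 genes. The 23 turns fell in the comparisons of 12 weeks, in those between time points in LO and SO, and in the change of LO against SO. The cause of each shift below was not tested. With DESeq2 the genes called were 225 between PF and SO and 75 between PF and LO after 12 weeks, 109 between PF and SO, 85 between PF and LO and 6 between LO and SO after 32 weeks, 1089 (LO) and 52 (PF) between time points, and 44 (PF against SO) and 12 (PF against LO) for the change with time. Of the 5 genes followed here DESeq2 called 3 for PF against SO after 32 weeks, 3 between time points in PF and 1 for the change of PF against SO. With all 6 groups in 1 fit 2 genes were called for PF against LO at 12 weeks and 2 at 32 weeks. With only the diets compared 1 gene was called for LO against SO after 32 weeks, and with no filter 0 genes were called between time points in PF.

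Leaving out each mouse in turn gave 0 to 131 genes called for PF against SO (most without PF mouse 5) and 0 to 1 for PF against LO after 12 weeks, 0 to 1 for PF against SO after 32 weeks, and 0 to 3 for the change of PF against SO (most without PF mouse 5 of 12 weeks). Between time points it gave 47 to 1043 in LO (without mouse 3 of 12 and mouse 4 of 32 weeks), 226 to 1556 in SO (without mouse 4 and mouse 1 of 32 weeks) and 0 to 7 in PF. Red cell list genes called in LO were 0 to 1, and of the 5 genes 0 to 2 were called in PF.

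The labels give the groups the same replicate numbers, but mice of 1 number and time correlated with a mean r of 0.094 (−0.403 to 0.495 over 30 pairs, 15 of them over 0.1), beside −0.0214 for different numbers at the same time. Across times the mean r was 0.141 for the same number (24 of 45 pairs over 0.1) and −0.034 for different numbers. Of pairs with different numbers, 36 of 120 at the same time and 45 of 180 across times were over 0.1. Mice of the same number were thus more alike on average, and the alpha to beta ratio set mice numbered 1 apart. The main fits still did not take the numbers as pairs, by a rule that every pair be over 0.1. Their SEs and p-values therefore leave out this likeness. What a shared number marks was not tested. With the replicate block 668 genes were called between time points in LO, 1224 in SO and 6 in PF, and 0 in the other 9 comparisons, with none of the 5 genes called. With depth of 27590631 to 41301707 counts, genes with few counts such as Slc4a1 and Ppbp could not be compared.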

Other observations

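The genes most opposite to the globins over the 30 mice, named after their values were seen, were Gpc4, a cell surface proteoglycan (r = −0.721), Col4a3, a basement membrane collagen chain (r = −0.644), and Tspan2, a tetraspanin (r = −0.624). These are descriptions with no test. Without PF mouse 4 after 32 weeks r was −0.643 for Gpc4, −0.557 for Col4a3 and −0.514 for Tspan2. Over all 16605 genes the median r was −0.0157, and 4.93% of genes had r over 0.3.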
